A study of Saccharomyces cerevisiae with 4 samples.

Results

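Ergosterol is the main sterol of fungal membranes, and 10 genes of its synthesis in the budding yeast Saccharomyces cerevisiae are described here. They were chosen by systematic name from a table of 6301 open reading frames (ORFs): ERG20 (YJL167W), ERG9 (YHR190W), ERG1 (YGR175C), ERG7 (YHR072W), ERG11 (YHR007C), ERG24 (YNL280C), ERG25 (YGR060W), ERG26 (YGL001C), ERG28 (YER044C) and ERG4 (YGL012W). Of these 10 genes 9 had a value on all 4 arrays, and ERG7 had a value on 3. Together with the 13 other pathway genes taken up below they make 23 genes from acetyl-CoA to ergosterol.

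Yeast builds ergosterol from acetyl-CoA through mevalonate to farnesyl diphosphate, then through squalene and lanosterol. The pathway is known for its cost in oxygen, heme and reducing power, because squalene epoxidation and several demethylation and desaturation steps use molecular oxygen. The transcription factors Upc2 and Ecm22 activate many ERG genes when sterols run low, while Hap1, Rox1 and Mot3 tie the pathway to heme and oxygen. Azole antifungals act on the product of ERG11, and allylamines on that of ERG1.

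Strain S288c was compared in a pair of media, with both RNAs labelled in Cy3 or Cy5 and hybridized to 1 array of spotted ORFs. Synthetic complete medium (SC) is nitrogen-rich, and its cells were grown with shaking at 160 rpm and 30°C until the OD600 reached 0.4. For the nitrogen-poor condition, such cells were moved for 12 h to minimal medium (MM) that lacked adenine and amino acids and held 0.025% ammonium sulfate, so nitrogen supply, culture time and the loss of amino acids cannot be told apart. Reverse transcription was primed with oligo-dT in all arrays, and the dye orientations, MM in Cy5 and SC in Cy5, held 2 arrays each, numbered as replicates 1 and 2. As background, S288c carries a transposon insertion in HAP1 that weakens the Hap1 protein; the genotype was not checked here. Every array was normalized to its own mean, so a ratio does not show a change in total mRNA per cell.

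All values are log2 ratios of MM over SC, where 1 unit is a doubling. The titles of the arrays disagree with their channel labels on which dye each medium carried, and the direction was taken from the study's text, which states the direction of 5 genes on its oligo-dT arrays. The deposited values, averaged over the arrays, had the stated sign in 5 of 5 genes. The study reports no significant difference for these genes on its oligo-dT arrays. Of these 5 genes 4 lie in the stretches described next, where the replicates do not correlate, so the direction is called likely on this basis. In the other direction every sign below would turn. The names MM in Cy5 and SC in Cy5 follow the titles. By the channel labels these orientations would trade names, which the check of signs does not settle. The arrays held between 4122 and 5941 values, with fewer on both arrays of replicate 2, and precision is limited by having 4 arrays. In 4 stretches of the table (1549 ORFs) the means of replicates 1 and 2 did not correlate from gene to gene (r = 0.042 across 771 genes, against 0.959 across 2994 genes outside). All 10 genes lay outside these stretches, and r in the 29 genes around each was between 0.755 (ERG24) and 0.986 (ERG20). Of the other 13 pathway genes 7 lay inside.

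The ergosterol genes did not move as a block when nitrogen was depleted. ERG28, which encodes the membrane tether that holds sterol C-4 demethylation enzymes together, was abundantly expressed in MM, 1.81-fold over SC. ERG1, the squalene epoxidase, was meagerly expressed, 1.52-fold lower. These were the 2 of 9 tested genes that passed an adjusted p of 0.05 (limma on the means of n = 2 replicates, Benjamini-Hochberg over all genes tested), 1 in each direction. ERG7, the lanosterol synthase, had the lowest mean of all 10 genes at -1.23, but was blank on 1 array and not in that test. Of all 3765 genes tested, 33.5% passed, 16.5% higher and 17% lower in MM, so the share of ergosterol genes called was not above that of the genes at large. Outside the stretches 40.4% of genes passed. The count depended on the stretches: with them left out of the fit, ERG25, ERG4 and ERG11 also passed. That made 5 of the 9 genes, against 1920 of 2994 genes in that fit. Before adjustment 4 of the 9 genes (ERG28, ERG1, ERG25 and ERG4) reached a p of 0.05, against 48.3% of all genes. The median log2 ratio was -0.18 over the 9 genes and -0.019 over all 3765, and the median size regardless of sign was 0.28 against 0.37. Values over all 3765 genes include those inside the stretches, while the 9 genes lay outside.

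**Figure D1:**
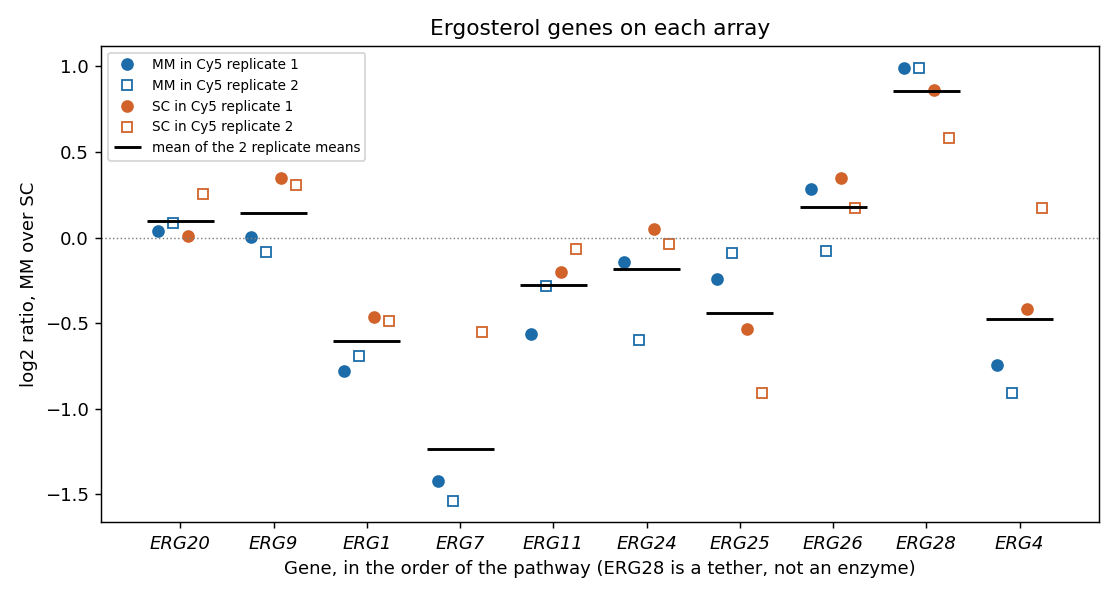
Log2 ratio of MM over SC (y axis) for the 10 ergosterol genes (x axis) on each of the 4 arrays; filled points are replicate 1, open squares replicate 2, blue MM in Cy5, orange SC in Cy5, and the bar is the mean of the 2 replicate means. ERG28 sits between 0.58 and 0.99 on all 4 arrays, ERG1 between -0.78 and -0.46, and ERG7 has 3 points between -1.54 and -0.55.

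The first of the genes in pathway order is ERG20, whose product, farnesyl diphosphate synthase, supplies sterols, ubiquinone, dolichols, heme A and prenylated proteins alike. Its log2 ratio was 0.040 and 0.086 with MM in Cy5 (replicates 1 and 2), while SC in Cy5 gave 0.0063 and 0.25. It was thus slightly above 0 on all 4 arrays, with a mean of 0.097 ± 0.10 (SD, n = 2). The 95% interval ran from -0.21 to 0.41 (limma adjusted p 0.490), which leaves room for a change of either sign. ERG9, the squalene synthase, commits farnesyl diphosphate to sterols. It was at 0.0059 and -0.082 with MM in Cy5 and at 0.35 and 0.31 with SC in Cy5. Both higher values came from the same dye orientation, and the mean of 0.14 ± 0.045 was not told apart from 0 (interval -0.14 to 0.43, limma adjusted p 0.302).

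Squalene is oxidized by the product of ERG1 and cyclized to lanosterol by that of ERG7, and both genes were below 0 wherever they were measured. ERG1 was at -0.78 and -0.69 with MM in Cy5 and at -0.46 and -0.49 with SC in Cy5. The replicate means differed little, with a mean of -0.61 ± 0.023, while the 4 arrays ran from -0.78 to -0.46. The 95% interval was from -0.89 to -0.32 (n = 2, limma adjusted p 0.0279), and 14.8% of all genes tested had a lower mean. The call rested on the arrays with MM in Cy5: the adjusted p was 0.0549 without the first replicate and 0.107 without the second, at means of -0.53 and -0.55. ERG7 was at -1.42 and -1.54 with MM in Cy5 and at -0.55 on the single array with SC in Cy5 (replicate 2). The mean of its replicate means was -1.23 ± 0.27, a 2.35-fold lower abundance in MM. It is unbalanced for the dye, since replicate 1 has MM in Cy5 alone. In a fit of all genes with values on at least 3 arrays, chosen after the data were seen, ERG7 passed (limma adjusted p 0.0249, 4570 genes).

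Lanosterol then loses 3 methyl groups and has its ring double bonds rearranged. ERG11 encodes the cytochrome P450 that removes the C-14 methyl group. Its log2 ratio was -0.57 and -0.28 with MM in Cy5, while SC in Cy5 gave -0.20 and -0.066. All 4 values lay below 0 but covered a wide range, and the mean of -0.28 ± 0.15 did not pass (interval -0.62 to 0.058, limma adjusted p 0.144). ERG24, the C-14 sterol reductase that acts next, was at -0.14 and -0.60 with MM in Cy5 and at 0.048 and -0.037 with SC in Cy5. A single array thus held most of its distance from 0, and the mean was -0.18 ± 0.19 (interval -0.55 to 0.19, limma adjusted p 0.308).

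The C-4 demethylation complex is formed by the products of ERG25, ERG26 and ERG27 on the Erg28 tether. The means of its genes lay on both sides of 0, but only ERG28 was called. ERG25, the C-4 methyl sterol oxidase, was at -0.24 and -0.093 with MM in Cy5 and at -0.53 and -0.91 with SC in Cy5. It was lower in MM on all 4 arrays, with a mean of -0.44 ± 0.078 and an interval from -0.74 to -0.15, and did not pass the threshold (limma adjusted p 0.0510). Without SC in Cy5 replicate 2 it was at -0.24 (adjusted p 0.305). ERG26, the C-3 sterol dehydrogenase, was at 0.28 and -0.080 with MM in Cy5 and at 0.35 and 0.17 with SC in Cy5. Its mean of 0.18 ± 0.19 was no larger than its spread (interval -0.19 to 0.55, limma adjusted p 0.310). ERG28 was at 0.99 and 0.99 with MM in Cy5 and at 0.86 and 0.58 with SC in Cy5. It was the highest of the 10 genes on each of the 4 arrays, with a mean of 0.86 ± 0.10 and an interval from 0.55 to 1.17 (limma adjusted p 0.0193), and 90.8% of all genes tested lay below it. Without MM in Cy5 replicate 2 its adjusted p was 0.0744 at a mean of 0.76. ERG27, the C-3 keto reductase, lies in a stretch without agreement between replicates and was at -0.48 and -0.33 in replicate 1 and at 0.25 on its 1 array of replicate 2.

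ERG4, the sterol C-24 reductase, makes ergosterol itself in the last step. It was at -0.74 and -0.91 with MM in Cy5 and at -0.42 and 0.17 with SC in Cy5. It was below 0 on 3 of these arrays and above 0 on SC in Cy5 replicate 2. The mean of -0.47 ± 0.15 missed the threshold (interval -0.81 to -0.14, limma adjusted p 0.0565), and 1 array moved it either way. Without SC in Cy5 replicate 2 it passed, at -0.74 (adjusted p 0.0479), while without MM in Cy5 replicate 2 it was at -0.20 (0.597). It did not pass without either array of replicate 1 (adjusted p 0.0797 and 0.0792).

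**Figure D2:**
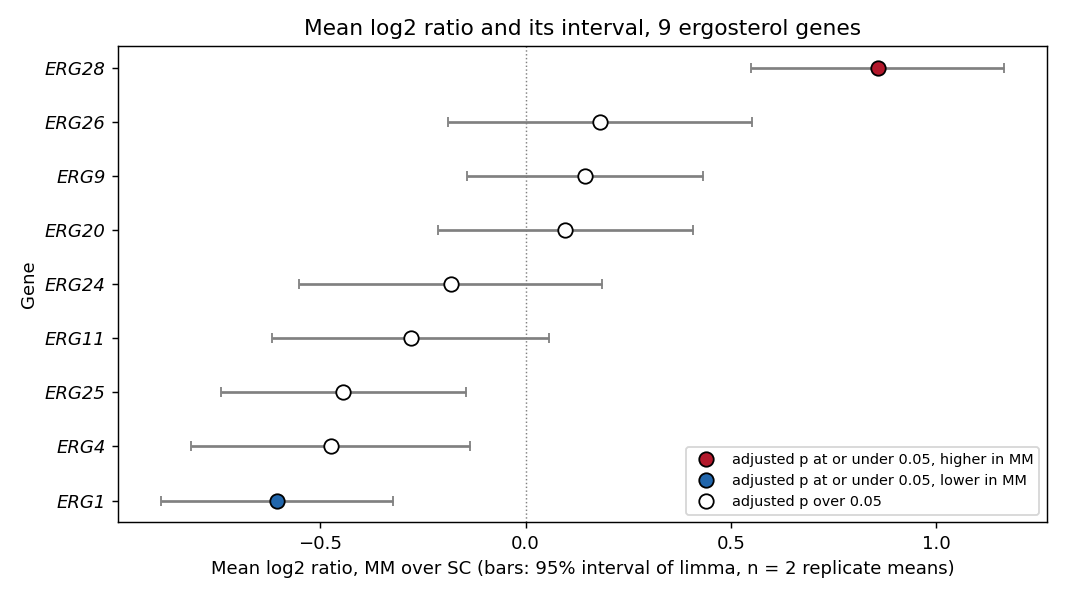
Mean log2 ratio of MM over SC (x axis) for the 9 ergosterol genes measured on all 4 arrays (y axis, ordered by mean), with the 95% interval of limma from n = 2 replicate means; filled points passed an adjusted p of 0.05. ERG28 (0.86) and ERG1 (-0.61) passed, while the intervals of ERG25 and ERG4 also lie below 0 but their adjusted p exceed the threshold.

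Ranked by their means, the genes ran from ERG28 through ERG26, ERG9, ERG20, ERG24, ERG11, ERG25, ERG4 and ERG1 to ERG7. Of the 9 gaps between neighbours, 7 were within the summed SDs of the pair. These SDs are between replicate means and leave out the spread between dye orientations. The gap below ERG28 was 0.68 against summed SDs of 0.29, and the gap above ERG7 was 0.63 against 0.29. The low end held with MM in Cy5 alone: on the only array with SC in Cy5 that measured ERG7, ERG25 was lowest at -0.91, ahead of ERG7 at -0.55 and ERG1 at -0.49. The middle genes from ERG26 to ERG1 therefore have no settled order from neighbour to neighbour. Of the 9 genes tested, 5 kept 1 sign on all 4 arrays (55.6%), against 59.7% of all genes, those inside the stretches included.

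Whether a value moved with the dye was asked because several genes were further from 0 in 1 orientation. ERG4 averaged -0.83 with MM in Cy5 but -0.12 in the reverse labelling, a difference of -0.70, and ERG25 at -0.17 and -0.72, a difference of 0.55 the other way. Neither passed in the limma fit of a dye term (adjusted p 0.568 for both, unadjusted p 0.0463 and 0.0485). Of the 9 ergosterol genes 0 were called for the dye and 2 reached an unadjusted p of 0.05, while 0.0266% and 8.21% of all 3765 genes did. With the replicate number as a block 0 of 9 were called, against 0.691% of all genes. With MM in Cy5 7 of the 9 genes had the lower value, as had 60.3% of all genes, and the exceptions were ERG25 and ERG28. The median difference was -0.26 over the 9 genes and -0.083 over all genes. The part of a dye effect in the mean of a single gene was not tested beyond this; a constant effect cancels between the orientations for the 9 genes but not for ERG7.

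**Figure D3:**
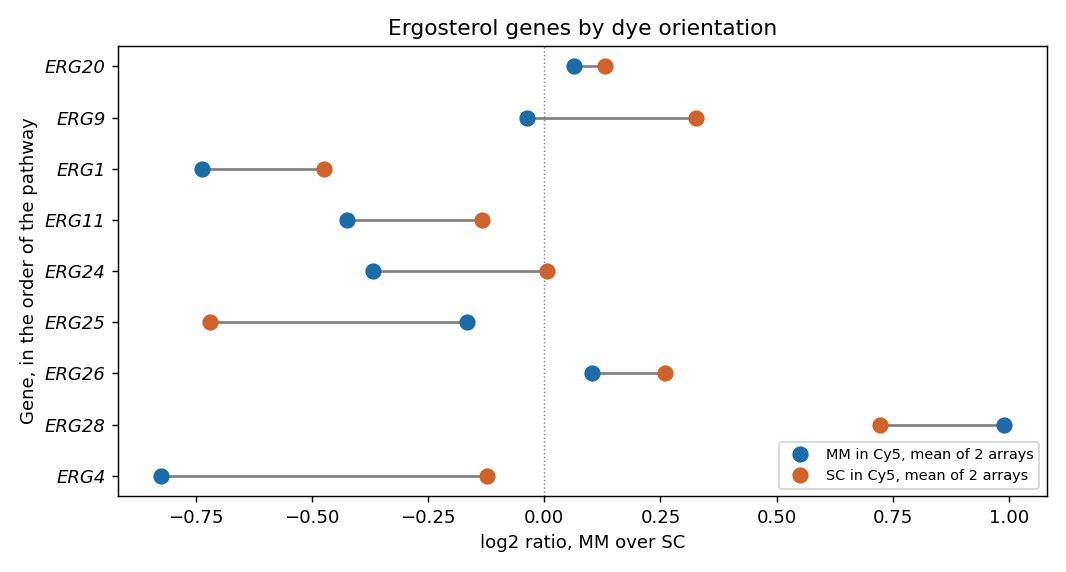
Log2 ratio of MM over SC (x axis) averaged over the 2 arrays of each dye orientation (blue MM in Cy5, orange SC in Cy5) for 9 ergosterol genes (y axis, in pathway order); lines join the orientations. ERG4 spans -0.83 to -0.12, ERG25 -0.72 to -0.17, and ERG24 reaches 0.0055 with SC in Cy5.

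The mevalonate arm feeds the genes above, from acetyl-CoA to the isoprene units that ERG20 joins. Of its 8 genes 7 were tested, of which 1 was called higher and 0 lower, against 33.5% of all genes called. The median log2 ratio was -0.023 over the 5 tested genes outside the stretches and -0.16 with the 2 inside. ERG8, the phosphomevalonate kinase, was the one called, at 1.49 and 1.72 with MM in Cy5 and at 1.49 and 1.28 with SC in Cy5. Its mean of 1.49 ± 0.011, a 2.82-fold higher abundance in MM, exceeded that of ERG28 (limma adjusted p 0.00978). ERG12 (mevalonate kinase), MVD1 (mevalonate diphosphate decarboxylase) and IDI1 (isopentenyl diphosphate isomerase), which act beside ERG8, were at -0.023 ± 0.033, -0.18 ± 0.031 and 0.063 ± 0.050 and were not called (limma adjusted p between 0.213 and 0.855). ERG10, the acetoacetyl-CoA thiolase, was at -0.16 ± 0.33, and r between the replicates was 0.466 in its window beside a stretch edge. ERG13 (HMG-CoA synthase) and HMG1 (HMG-CoA reductase, the rate-limiting step) lie inside a stretch. ERG13 was at -0.10 in replicate 1 and -1.06 in replicate 2, and HMG1 at -0.14 and -0.37. HMG2, the second reductase gene, had 2 values, both in replicate 1, at -0.084 and 0.40. HMG1 and HMG2 are related in sequence and may share signal on spots of whole ORFs.

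Of 5 remaining steps between zymosterol and ergosterol and at C-4, 3 genes were tested and 1 was called, lower in MM (17% of all genes were). This was ERG2, the C-8 sterol isomerase, at -1.29 and -1.61 with MM in Cy5 and at -1.31 and -0.77 with SC in Cy5. Its mean was -1.24 ± 0.076, a 2.37-fold lower abundance (limma adjusted p 0.0120), close to that of ERG7, although without MM in Cy5 replicate 2 the adjusted p was 0.0520. ERG6 (C-24 methyltransferase), ERG3 (C-5 desaturase) and ERG5 (C-22 desaturase) lie inside the stretches. Their replicate means were -0.25 and 0.42, -0.11 and 0.10, and 0.021 and -0.41, so each changed sign between replicates and no direction is given. NCP1, the P450 reductase that passes electrons to Erg11, Erg5 and Erg1, was at -0.27 ± 0.033 (limma adjusted p 0.117), and CYB5, cytochrome b5, had 1 value of 0.60.

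**Figure D4:**
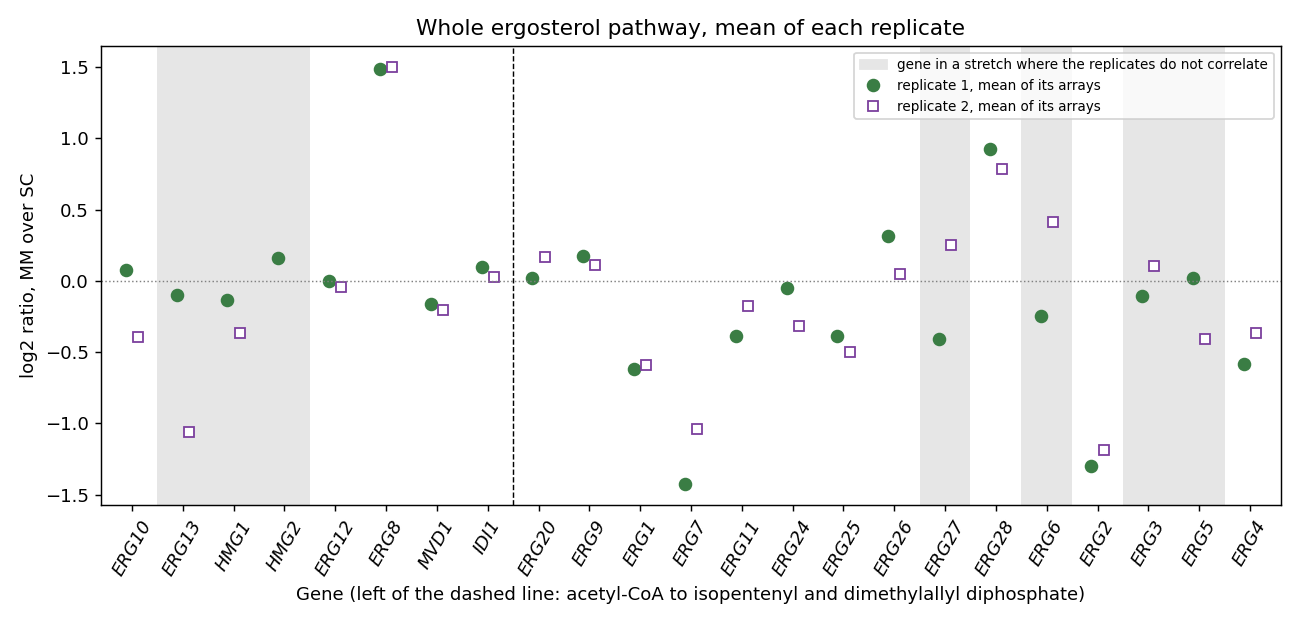
Log2 ratio of MM over SC (y axis), as the mean of the arrays of replicate 1 (green points) and of replicate 2 (open purple squares), for 23 genes from acetyl-CoA to ergosterol (x axis); grey bands mark 7 genes inside stretches where replicates do not correlate. Outside the bands all genes except ERG10 and ERG12 kept 1 sign in both replicates. Called among them were ERG8 and ERG28, above 0, and ERG2 and ERG1, below 0. ERG7, also below 0, was not in the test.

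Regulators of the pathway were tested in 4 of 9 cases and 0 were called, against 33.5% of all genes. Before adjustment 1 regulator reached a limma p of 0.05, against 48.3% of all genes. That gene was UPC2, the sterol-sensing activator, at 0.28 and 0.53 with MM in Cy5 and at 0.33 and 0.36 with SC in Cy5. It was above 0 on all 4 arrays, with a mean of 0.38 ± 0.097 and an interval from 0.069 to 0.68 (unadjusted limma p 0.0296, adjusted p 0.0721). UPC2 passed in some of the alternative fits given below. ROX1, the hypoxic repressor, was at -0.088 ± 0.0087, and NSG1, which stabilizes HMG-CoA reductase, at -0.21 ± 0.054 (limma adjusted p 0.489 and 0.178). HAP1 lies inside a stretch, at -0.19 in replicate 1 and -0.12 in replicate 2 (limma adjusted p 0.284). ECM22 had values of -0.28 and 0.0031, MOT3 of 0.066 and -0.32, SUT1 (sterol uptake) of -0.68 and -0.61 and NSG2 of -0.12 and -0.10, all in replicate 1, and HRD1 (ubiquitin ligase for HMG-CoA reductase) was at 0.12, 0.045 and 0.56 on 3 arrays.

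Farnesyl diphosphate made by ERG20 also enters other branches. Of 6 genes there, all tested, 0 were called higher and 2 lower, against 16.5% and 17% of all genes. In either direction the share called was near the 33.5% of all genes. RER2, which elongates farnesyl diphosphate to dolichol precursors, was at -0.82 ± 0.22 (limma adjusted p 0.0294). RAM1, a subunit of protein farnesyltransferase, was at -0.55 ± 0.084 (limma adjusted p 0.0362). The median was -0.49 over the 5 genes outside the stretches; SRT1, the sixth, lies inside, at 1.51 in replicate 1 and -2.44 in replicate 2. Without MM in Cy5 replicate 2 neither passed (adjusted p 0.0630 and 0.115), and RAM1 also failed without MM in Cy5 replicate 1 (0.0653) or SC in Cy5 replicate 2 (0.0607). ERG20, on the same branch point, was at 0.097.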

How the data were processed

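Spotted ORF arrays of S. cerevisiae S288c, reverse transcribed from 2 µg of mRNA with oligo-dT, were analysed for 4 hybridizations. The authors scanned and gridded the slides, subtracted background, called a spot well measured above 3 SDs of the background pixels, and used those spots to normalize every array by a mean-by-mean procedure. The deposited values are log2 ratios per ORF and array, blank where a spot was not well measured; their scale and direction are not stated with the values. Here the arrays of both dye orientations were averaged per replicate number (n = 2). Each ± is the SD of these means and can be smaller than the spread of the 4 arrays. Outside the stretches deviations of same-numbered arrays correlated at 0.044, so the pairing behind this SD is not settled. The 3765 genes with no blank array entered limma 3.58.1 (R 4.3.3; lmFit, then eBayes) with a two-sided test of a mean of 0, adjusted over all of them by Benjamini-Hochberg at a threshold of 0.05. The dye term was fitted on the 4 arrays. The fits were also run on simulated independent values without such stretches, so that run did not test the effect of the stretches or of the pairing. Symbols came from the RefSeq table of assembly R64, which held 5801 of the 6301 ORFs; as no build is named with the values, no coordinates are given. Whether replicates came from separate cultures is stated only for the series as a whole. The study's methods state that each replicate had its own reverse transcription, so p-values may not cover variation between cultures. The p-values measure the spread between the replicate means, moderated by a variance shared over all genes (2.1 prior degrees of freedom). The methods of the study used a Bayesian program (BAGEL), which was not used here.

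The members, gene lists and the 4 stretches were chosen with earlier results of these data known. Named genes were the 10 members, every gene of the mevalonate, sterol step, electron donor and regulator lists, and called genes of the other lists. SRT1, which was not called, and OLE1, which was not tested, were named besides. Alternatives covered the replicate block, moderation, centring and scaling, the filter on blanks, the stretches, the dye orientation and each array.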

Additional observations from a re-analysis of the deposited data

How the results depend on the processing

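Among the ergosterol genes, 2 were called of 9 (1 higher, 1 lower) and over all genes 1263 of 3765. The fit without the stretches has 1 common variance, so its call is a limit on fold change. There 5 of 9 ergosterol genes (ERG28, ERG1, ERG25, ERG4 and ERG11) and 1920 of 2994 genes passed. Of the ergosterol genes 1 was higher and 4 lower, against 923 higher and 997 lower over all genes. With the replicate number as a random replicate block 4 ergosterol genes (1 higher, 3 lower) and 1979 of 3765 genes (956 higher, 1023 lower) passed. With no replicate block 2 ergosterol genes and 1744 genes passed. Without moderation limma gave 0 of 9 and 0 of 3765, where 1 degree of freedom leaves little power. With only the arrays with SC in Cy5 there were 0 and 574. Genes on at least 3 arrays with no replicate block gave 1986 calls of 4570. Leaving out 1 array gave 0 to 3 ergosterol genes and 549 to 1043 genes, with 3801 to 4255 tested. Both low counts came without MM in Cy5 replicate 2. ERG25 passed in 4 of 14 alternatives (centring among them, adjusted p 0.0472) and ERG4 in 4 of 14. UPC2 passed with no replicate block (limma adjusted p 0.0209), with a random block (0.0101) and without the stretches (0.00409). It also passed among genes on at least 3 arrays with no block (0.0228), but in no other alternative. Signs turned for genes near 0. ERG9 was at -0.038, ERG12 at 0.014 and ERG6 at -0.073 with only MM in Cy5, and ERG24 at 0.0055 and IDI1 at -0.13 with only SC in Cy5. Without 1 array ERG12 lay between -0.051 and 0.0049, IDI1 between -0.095 and 0.22 and ERG6 between -0.017 and 0.18. Dye calls stayed at 0 of 9 with a fixed replicate block (2 at an unadjusted p at or under 0.05) and with centring. Deviations of same-numbered arrays correlated at 0.706 over all genes but 0.044 outside the stretches, so the numbers do not clearly pair arrays there.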

Other observations

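Genes that handle finished sterols were mostly not tested, and 6 of the 16 lie in the stretches where replicates do not correlate. Of 5 genes for sterol esters, 4 were tested and 1 was called (33.5% of all genes were), ARE1, a sterol acyltransferase, at -0.65 ± 0.040 (limma adjusted p 0.0253), which did not pass without either array with MM in Cy5 (adjusted p 0.120 and 0.112). Of 11 genes for sterol uptake and transport 3 were tested and 0 were called by limma. Before adjustment 2 reached a limma p of 0.05, against 48.3% of all genes.

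Among genes known to respond to oxygen and heme, as the sterol pathway does, calls went both ways. Of 6 such genes 5 were tested, 2 were called higher and 1 lower, against 16.5% and 17% of all genes. The median log2 ratio was 0.41 over the 5 tested genes, of which 1 had a mean below 0. CYC1, the aerobic cytochrome c, was at 1.08 ± 0.0052, with its arrays between 0.79 and 1.36 (limma adjusted p 0.0133). The hypoxic form of translation factor eIF5A, ANB1, was at 0.71 ± 0.013 (limma adjusted p 0.0225). ANB1 did not pass without MM in Cy5 replicate 2 (adjusted p 0.0586), and its near-identical copy HYP2 may share its signal. COX5B, the hypoxic subunit of cytochrome c oxidase, was at -1.57 ± 0.12 (limma adjusted p 0.0101). OLE1, the oxygen-dependent fatty acid desaturase, was singled out after its values were seen. It was at 3.11 and 3.57 on the arrays of replicate 2 and blank on both arrays of replicate 1, so it has no test.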
